A study of Mus musculus with 12 samples.

Results

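The collagen genes expressed in the mouse left ventricle were described in 4 groups of mice with 3 libraries each. Wild type mice and mice with the Prkca T497A change each had either a sham operation or transverse aortic constriction (TAC). TAC narrows the aorta beyond the heart and loads the left ventricle with pressure; here it was set with a 27-gauge needle at 10 weeks of age, and the heart was taken 5 weeks later, at 15 weeks of age. T497A is an amino acid substitution in protein kinase C alpha, the product of Prkca; the sources used here do not give strain, sex or the number of mutant alleles. Collagen rows were those of the raw count table whose symbol is Col, a number, a and a number with nothing after it, and that had a mean of at least 10 counts over the 12 libraries. Of 55401 rows, 44 carried such a symbol and 35 met the minimum, and all 35 were among the 15764 genes that passed the low-count filter and were tested. They comprised 9 fibrillar collagens, 6 of the basement membrane, 2 network-forming, 5 of type VI and 13 others.

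Collagens are secreted proteins built of 3 chains wound into a triple helix. Fibrillar collagens form the cables that give the interstitium its tensile strength, type IV chains form the sheet-like basement membrane around myocytes and vessels, type VI forms beaded filaments between the sheet and the fibrils, and smaller families decorate fibrils or span the cell membrane. In the heart, fibroblasts are the main source of fibrillar collagen, vessel cells make much of the type IV collagen, and pressure overload is a classic cause of interstitial fibrosis.

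The 9 collagen rows under the minimum were Col2a1, Col6a4, Col7a1, Col9a1, Col9a3, Col10a1, Col17a1, Col19a1 and Col24a1. Just inside the minimum lay Col26a1, with a mean of 14.9 counts, and Col6a5, with 20.8. Just outside lay Col7a1 with 7.50 and Col17a1 with 4.33. Library totals ran from 36862004 to 46898344 counts. The cell type label reads cardiomyocyte, but RNA came from cardiac tissue with no sorting step described. Markers of other cells were present throughout: in wild type sham the 13 fibroblast markers summed to 1811 to 1852 CPM (the depth-scaled count, here with TMM-adjusted totals) and the 12 endothelial markers to 1364 to 1480, beside 72675 to 82294 for the 10 cardiomyocyte markers. In each group 1 library tended to be highest across the collagens: wild type sham replicate 2 in 27 of the 35, T497A sham replicate 2 in 28, T497A TAC replicate 2 in 25 and wild type TAC replicate 1 in 22. Low counts were more often even than odd: 69.6% of all values from 1 to 20 were even, against 51.6% of values over 1000, and Col8a2, Col11a1 and Col6a5 were even in 12 of 12 libraries. Even counts did not go by level alone. Col12a1, Col16a1 and Col26a1 were even in 11 of 12, at means of 520, 692 and 14.9 counts. Col9a2, with a mean of 45.9, was even in 3. A count may therefore not stand for 1 independent read.

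Several collagen genes sit beside a partner, and 4 start regions are shown because the data below bear on them. Col4a1 and Col4a2 (chromosome 8) are transcribed away from each other from starts 21 bases apart, and Col4a4 and Col4a3 (chromosome 1) from starts 72 bases apart. Col6a6 and Col8a2 are the collagen that fell after TAC and the one with the largest rise. Each RefSeq window (GRCm38.p6, 300 bases, written 5′ to 3′ on the gene's strand) runs from upstream of the start into the first exon. Capitals mark the GC box GGGCGG or the CCAAT box on either strand, and the windows were chosen with the fold changes known.
Col4a1 (chr8:11312777-11313076, minus strand): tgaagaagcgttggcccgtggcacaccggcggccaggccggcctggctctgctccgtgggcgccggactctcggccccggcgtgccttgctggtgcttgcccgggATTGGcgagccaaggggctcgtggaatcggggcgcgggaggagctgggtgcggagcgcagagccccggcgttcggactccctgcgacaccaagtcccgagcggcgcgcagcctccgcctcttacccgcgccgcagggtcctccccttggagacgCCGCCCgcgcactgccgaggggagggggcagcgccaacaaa
Col4a4 (chr1:82586800-82587099, minus strand): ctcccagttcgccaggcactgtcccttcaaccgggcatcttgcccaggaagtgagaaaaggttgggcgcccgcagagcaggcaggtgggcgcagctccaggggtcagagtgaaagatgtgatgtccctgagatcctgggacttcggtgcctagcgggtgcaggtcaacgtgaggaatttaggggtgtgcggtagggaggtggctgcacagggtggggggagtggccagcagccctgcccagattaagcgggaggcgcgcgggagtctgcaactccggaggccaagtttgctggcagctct
Col6a6 (chr9:105828036-105828335, minus strand): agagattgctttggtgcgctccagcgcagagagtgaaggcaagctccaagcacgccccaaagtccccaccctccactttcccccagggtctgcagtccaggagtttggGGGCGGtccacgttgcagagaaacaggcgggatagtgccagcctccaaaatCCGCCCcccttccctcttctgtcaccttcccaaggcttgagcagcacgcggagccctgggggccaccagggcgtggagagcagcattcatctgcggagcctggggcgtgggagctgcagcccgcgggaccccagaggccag
Col8a2 (chr4:126286544-126286843, plus strand): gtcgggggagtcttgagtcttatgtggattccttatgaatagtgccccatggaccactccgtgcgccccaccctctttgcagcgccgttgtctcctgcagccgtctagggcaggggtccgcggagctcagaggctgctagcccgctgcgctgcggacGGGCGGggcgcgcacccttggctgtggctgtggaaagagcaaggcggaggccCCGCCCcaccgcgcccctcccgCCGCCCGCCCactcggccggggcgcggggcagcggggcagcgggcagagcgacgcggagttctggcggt
The windows of Col4a1, Col6a6 and Col8a2 held 1, 2 and 4 GC boxes, that of Col4a1 also 1 CCAAT box, and that of Col4a4 none of the motifs searched. Windows were found for 28 of the 35 genes, 30 in all since Col6a2 and Col18a1 have 2 each. Over these 30, GGGCGG was in 70% against 35.7% of all 32851 windows. CCAAT was in 30% against 37.4%, TATAAA in 10% against 13.6%, the AP-1 motif TGANTCA in 3.33% against 7.81% and the TEAD motif GGAATG in 16.7% against 14.7%. These shares describe letters in the windows, on both strands.

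At rest, the basement membrane chains were the most abundant collagen transcripts. Levels of different genes were set side by side as CPM per kilobase of exon. In wild type sham, Col4a1 stood at 61.5 ± 15.7 (SD, n = 3) and Col4a2 at 50.4 ± 11.5. Col3a1 followed at 23.5 ± 5.99, Col15a1 at 19.6 ± 4.75, Col6a1 at 19.0 ± 2.11, Col1a1 at 16.1 ± 3.12 and Col1a2 at 12.9 ± 0.82. The neighbours from Col3a1 to Col1a1 lay within each other's spread. The levels of Col1a2 and Col3a1 beside these neighbours rested on the length used. Col1a2 stood at 30.1, above the 17.8 of Col1a1, by its longest transcript of 5.35 kilobases in place of 12.4 kilobases of joined exons. By longest transcripts Col3a1 stood at 41.4 ± 10.6, beyond the spread of Col15a1 (24.0 ± 5.83), Col6a1 (20.3 ± 2.25) and Col1a1. By joined exons type IV chains made up 47.3% of collagen transcripts in wild type sham and fibrillar chains 25.6%. With longest transcripts these shares were 40.4% and 32.3%.

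After TAC in wild type, collagen RNA rose broadly. The 35 genes together held 0.155, 0.225 and 0.185% of all counts in the wild type sham libraries and 0.657, 0.52 and 0.578% after TAC. In T497A they held 0.137, 0.257 and 0.169% after sham and 0.27, 0.394 and 0.222% after TAC. The TAC libraries of wild type lay above all others, and those of T497A overlapped their sham group. In such tissue RNA, a change in the number of cells of a type and a change in RNA per cell cannot be told apart.

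**Figure D1:**
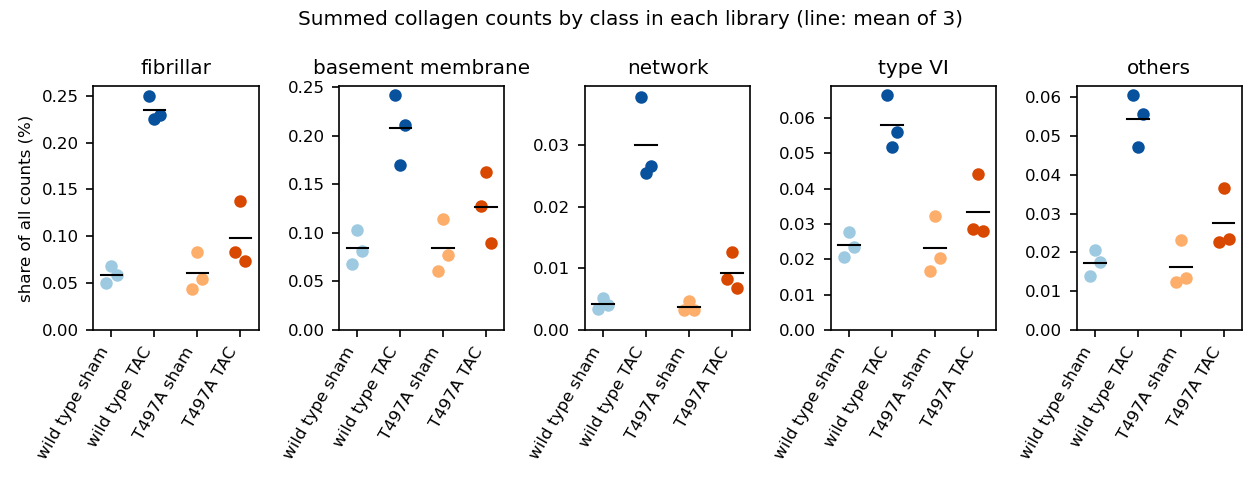
Share of all counts (%, linear axes from 0) taken by each collagen class in each library; points are libraries, lines the mean of 3. In every class the 3 wild type TAC libraries lie above the 9 others, and in some classes T497A TAC libraries overlap T497A sham; for the fibrillar class wild type TAC runs from 0.225 to 0.25% and T497A TAC from 0.0736 to 0.138%.

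Of the 35 genes, 23 were called higher and 1 lower after TAC in wild type (quasi-likelihood test of edgeR, Benjamini-Hochberg adjusted across the 15764 genes, threshold 0.05). Over all tested genes 12.3% were called higher and 12.6% lower. The collagens' median log2 fold change was 1.28, against 0.01 over all tested genes. For 25 of the 35 every TAC library lay above every sham library, which held for 21.5% of tested genes. By class, 7 of 9 fibrillar, 5 of 6 basement membrane, 2 of 2 network, 2 of 5 type VI and 7 of 13 other collagens were called higher.

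**Figure D2:**
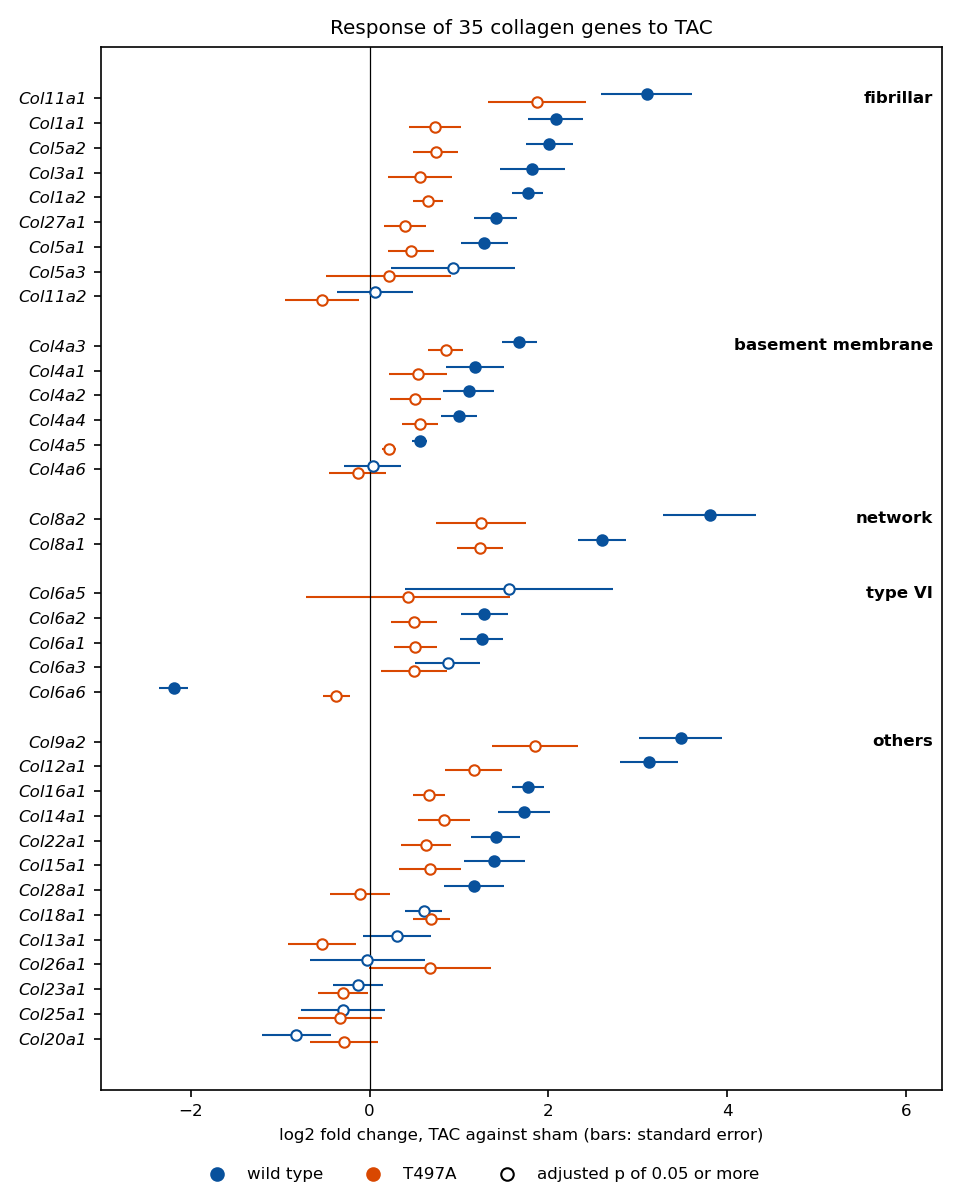
The log2 fold change after TAC against sham of each of the 35 collagen genes, by class, in wild type (blue) and T497A (orange), with bars of 1 standard error; filled points passed an adjusted p of 0.05. In wild type 24 points are filled, with Col6a6 the only filled one under 0, and in T497A none is.

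Among the fibrillar collagens, the chains of types I and III all rose. Col1a1, the major chain of type I collagen, stood at 89.1, 129 and 99.5 CPM in the sham libraries and 464, 417 and 460 in the TAC libraries. Its partner Col1a2 stood at 157, 172 and 153 CPM, then 561, 532 and 546. Col3a1, the sole chain of type III collagen, stood at 163, 273 and 255 CPM, then 829, 807 and 807. None of the 3 genes overlapped between the groups, and their log2 fold changes were 2.08 ± 0.31 (SE), 1.77 ± 0.17 and 1.82 ± 0.36 (adjusted p = 0.00127, 5.48e-05 and 0.00683 with edgeR).

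Type V and XI chains enter the core of the fibril and are known to set its diameter. Col5a2 rose from 28.8, 44 and 40.3 CPM to 167, 137 and 151, a log2 fold change of 2.01 ± 0.26 (adjusted p = 0.000518 with edgeR). Col5a1, with which it assembles, rose from 49, 63.6 and 59.1 to 151, 122 and 145 CPM, by 1.28 ± 0.26 (adjusted p = 0.00599 with edgeR). Col11a1, best known from cartilage, was scarce after sham at 0.231, 0.67 and 0.465 CPM and stood at 5.61, 3.65 and 2.52 after TAC. Its log2 fold change of 3.10 ± 0.51 (adjusted p = 0.000767 with edgeR) was the largest of the class. Col27a1, a fibrillar collagen with a short helix, also rose, by 1.41 ± 0.24. Col5a3 and Col11a2 did not pass the test, with log2 fold changes of 0.93 ± 0.70 and 0.06 ± 0.42.

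In the basement membrane class, the ubiquitous chains Col4a1 and Col4a2 rose from 344, 579 and 455 to 1210, 815 and 1100 CPM and from 258, 410 and 334 to 812, 592 and 753 CPM. The groups did not overlap, with log2 fold changes of 1.18 ± 0.33 and 1.11 ± 0.28 (adjusted p = 0.0288 and 0.0202 with edgeR). The Col4a1 call was lost without the low-count filter (adjusted p = 0.0569 with edgeR). Both calls were lost without wild type sham replicate 1 or 3 or wild type TAC replicate 1 or 3, with adjusted p up to 0.0963 and 0.0702, at log2 fold changes of at least 1.00 and 0.95. The chains Col4a3, Col4a4 and Col4a5 join in the tougher sheet best known from kidney. Col4a3 rose from 6.49, 8.24 and 8.22 to 28, 21.1 and 24 CPM, a log2 fold change of 1.67 ± 0.20 (adjusted p = 7.54e-05 with edgeR). The X-linked Col4a5 rose by less, from 55.4, 50 and 58.5 to 77.9, 80.6 and 83.1 CPM, by 0.56 ± 0.08 (adjusted p = 0.00026 with edgeR). Col4a4 rose by 1.00 ± 0.20, and Col4a6 did not pass the test at 0.04 ± 0.32.

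The network class holds the short-chain type VIII collagens, made by vessel wall and corneal cells and by fibroblasts. Col8a1 rose from 34, 52.2 and 42.3 to 323, 220 and 237 CPM, a log2 fold change of 2.60 ± 0.27 (adjusted p = 0.000152 with edgeR). Col8a2 rose from 0.6, 1.43 and 0.581 to 13, 10.9 and 13.1 CPM, the largest change of any collagen here, at 3.80 ± 0.52 (adjusted p = 0.000493 with edgeR).

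Type VI was the class with members called in both directions. Col6a1 rose from 73, 90.9 and 85.9 to 217, 184 and 194 CPM, and Col6a2 from 74.9, 110 and 91.7 to 250, 198 and 224 CPM. Their log2 fold changes were 1.25 ± 0.24 and 1.28 ± 0.26 (adjusted p = 0.00475 and 0.0066 with edgeR). The third classical chain, Col6a3, stood at 38.7, 70.4 and 57.6 CPM in the sham libraries and 119, 80.2 and 106 in the TAC libraries; its 0.87 ± 0.37 did not pass the test (adjusted p = 0.123 with edgeR). Col6a6, a later-found chain that can take the place of Col6a3 in the trimer (ENSMUSG00000043719.14, chromosome 9, 105687809 to 105828160, minus strand, GRCm38), stood at 20.8, 15 and 15.7 CPM in the sham libraries and 4.43, 4 and 2.84 in the TAC libraries. Every TAC library lay below every sham library, at a log2 fold change of -2.19 ± 0.16 (adjusted p = 4.2e-06 with edgeR). Col6a5, its neighbour on the same strand, had 0 to 50 counts per library and a log2 fold change of 1.56 ± 1.16.

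Of the 13 other collagens, those that bind to fibrils (the FACIT family) held the largest changes, and 5 of its 6 members were called higher. Col12a1, which links fibrils in tissue under tension, rose from 3.09, 4.6 and 3.43 to 30.6, 29.8 and 36.8 CPM, a log2 fold change of 3.12 ± 0.33 (adjusted p = 9.7e-05 with edgeR). Col9a2, another chain known from cartilage, rose from 7, 21 and 5 counts to 151, 130 and 111, by 3.48 ± 0.46 (adjusted p = 0.000145 with edgeR). Its partner chain Col9a3 had 0 to 6 counts in every library and Col9a1 likewise. Col16a1 rose from 8.2, 9.96 and 11 to 34.8, 31.6 and 32.9 CPM, by 1.77 ± 0.18 (adjusted p = 2.71e-05 with edgeR). Col14a1 and Col22a1, a collagen of tissue junctions, rose by 1.73 ± 0.29 and 1.41 ± 0.27. Col15a1, a basement membrane proteoglycan of vessels and muscle, rose from 92.3, 152 and 129 to 376, 253 and 352 CPM, by 1.40 ± 0.35 (adjusted p = 0.0182 with edgeR). Its call, and that of Col28a1 at 1.17 ± 0.34, was lost in 4 and 3 of 22 alternatives that each left out a wild type library, with adjusted p up to 0.0655 and 0.0872.

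The other 6 collagens of this class did not pass the test in wild type. Col18a1, the source of endostatin and the relative of Col15a1, had a log2 fold change of 0.60 ± 0.21 (adjusted p = 0.0562 with edgeR). The transmembrane collagens Col13a1, Col23a1 and Col25a1 lay between -0.30 and 0.31 and Col26a1 at -0.03. Col20a1, of the FACIT family, had -0.82 ± 0.39, and each of its TAC libraries lay below each sham library.

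In T497A hearts no collagen was called after TAC in either direction with edgeR, where 0.0634% of tested genes were called higher and 0.0507% lower. An unadjusted p under 0.05 was reached by 16 of the 35, against 11.7% of all tested genes. DESeq2 called 10 higher, against 1.00% of tested genes, the edgeR fit without a low-count filter called 4, against 0.584%, and limma-voom called none, against 0%. The median log2 fold change was 0.55; it was 0.33 without T497A sham replicate 1, 0.84 without T497A sham replicate 2 and 0.38 without T497A TAC replicate 2. The libraries did not overlap for 10 collagens that were higher, against 7.71% of tested genes. Col8a1 stood at 34.5, 46.8 and 33.1 CPM in the sham libraries and 79.9, 121 and 68.4 in the TAC libraries, a log2 fold change of 1.24 ± 0.26 (adjusted p = 0.131 with edgeR). Col1a2 stood at 150, 201 and 150 CPM, then 216, 346 and 227, with 0.66 ± 0.17 (adjusted p = 0.174 with edgeR). Neither gene overlapped between the groups. Col6a6 stood at 16.2, 16.9 and 15.8 CPM, then 12.6, 11.9 and 13.4, with -0.37 ± 0.15 (adjusted p = 0.35 with edgeR), again with no overlap.

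Most other members overlapped between the T497A groups, often through the high sham replicate 2. Col4a1 stood at 330, 671 and 415 CPM in the sham libraries and 696, 881 and 488 in the TAC libraries, and Col3a1 at 164, 365 and 222, then 296, 541 and 272. Col1a1 stood at 77.5, 157 and 96.1 CPM, then 158, 252 and 139.

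Col4a2 stood at 243, 452 and 307 CPM in the sham libraries and 480, 603 and 346 in the TAC libraries. Col15a1 stood at 74.6, 174 and 94.3 CPM, then 159, 235 and 153, and Col6a1 at 61.5, 114 and 72.6, then 97.4, 155 and 101. Col6a2 stood at 63.3, 125 and 82.1 CPM, then 108, 162 and 112. In these 4 genes T497A sham replicate 2 reached the T497A TAC range. The T497A sham libraries of Col5a2 stood at 29.3, 49.8 and 32.6 CPM, those of Col5a1 at 40.1, 73.1 and 48.3 and those of Col4a5 at 60.9, 52 and 52.

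Among the scarcer chains, Col12a1 stood at 3.78, 5.1 and 2.42 CPM after sham in T497A, below its 3 TAC libraries, and its log2 fold change was 1.16 ± 0.32. Col9a2 had 9, 8 and 9 counts after sham and Col16a1 stood at 7.76, 10.7 and 7.08 CPM, again below their TAC libraries. Col4a3 stood at 6.4, 8.99 and 6.2 CPM and Col11a1 at 0.348, 0.333 and 0.088, with no overlap either. Col8a2, at 0.896, 2.22 and 0.396 CPM after sham, overlapped.

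Between the sham groups no collagen was called in either direction with edgeR, DESeq2 or limma-voom, and none reached an unadjusted p under 0.05, against 3.03% of tested genes. Over all genes 0.0254% were called higher in T497A and 0% lower with edgeR, 0.0698% and 0% with DESeq2, and 0.0127% and 0% with limma-voom. No collagen had sham libraries that did not overlap between genotypes, against 8.21% of tested genes in either direction. The collagens' median log2 difference was 0.00 and ran from -0.94 for Col26a1 to 0.76 for Col11a2.

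After TAC, 13 of the 35 collagens were called lower in T497A than in wild type and 1 higher. Of all tested genes 4.06% were called lower and 4.64% higher. By sign alone, 6 of the 35 differences lay above 0, against 7943 of the 15764 tested genes. The 13 comprised Col1a1, Col1a2, Col5a2, Col11a1 and Col27a1 among the fibrillar, Col4a3 and Col4a5 of the basement membrane, both type VIII chains, and Col9a2, Col12a1, Col16a1 and Col22a1 of the FACIT family. For 20 of the 35 every T497A TAC library lay below every wild type TAC library, against 13.6% of tested genes. The median log2 difference was -0.75. These libraries also enter the TAC comparisons above, so the counts are not separate evidence.

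Col12a1 stood at 5.62, 12.3 and 7.3 CPM in T497A TAC, all below the wild type TAC range, with a log2 difference of -1.95 ± 0.31 (adjusted p = 0.005 with edgeR). Col16a1 stood at 11.6, 17 and 11.8 CPM and Col8a2 at 2.86, 3.14 and 2.18 CPM, again with no overlap. Their differences were -1.30 ± 0.17 and -2.18 ± 0.47 (adjusted p = 0.0013 and 0.0188 with edgeR). Col1a1, at 158, 252 and 139 CPM, differed by -1.29 ± 0.30 (adjusted p = 0.0316 with edgeR). Col4a5, at 61.1, 66.6 and 64.4 CPM, differed by only -0.33 ± 0.08 (adjusted p = 0.0224 with edgeR). Col5a2 (55.3, 82.2 and 48.8 CPM), Col4a3 (14.2, 15.2 and 9.45 CPM) and Col11a1 (1.2, 1.11 and 0.463 CPM) also lay below the wild type range. Their differences were -1.29 ± 0.25, -0.91 ± 0.19 and -2.08 ± 0.48. Col9a2, with 31, 51 and 18 counts, differed by -1.93 ± 0.41, Col22a1 (1.99, 2.85 and 2.06 CPM) by -1.18 ± 0.27 and Col27a1 (2.61, 3.62 and 4.96 CPM) by -0.94 ± 0.23. The wild type libraries of Col22a1 stood at 1.43, 2.66 and 1.8 CPM, then 3.92, 5.61 and 6.15, and its T497A sham libraries at 1.89, 1.22 and 1.34. Those of Col27a1 stood at 2.82, 3.06 and 2.21 CPM after sham, then 5.68, 7.88 and 7.99, and in T497A sham at 2.69, 3.33 and 2.49. For both genes wild type TAC lay above the 9 other libraries.

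Of these calls, 5 (those of Col1a2, Col4a3, Col8a1, Col12a1 and Col16a1) were made in all 22 alternatives run. The other 8 were lost in 2 to 5 of them, each time at the same sign, with adjusted p up to 0.12 for Col1a1 and 0.102 for Col27a1. The number called fell from 13 to 7 without wild type TAC replicate 3, where 1.25% of tested genes were called lower, and to 6 without T497A TAC replicate 1 or 3, where 1.73% and 1.69% were. Col3a1 (296, 541 and 272 CPM in T497A TAC) and Col5a1 (62.6, 101 and 58.4 CPM) missed the threshold at -1.14 ± 0.36 and -0.92 ± 0.26 (adjusted p = 0.0898 and 0.0586 with edgeR), though neither overlapped with wild type TAC. Col6a6 was the collagen called higher in T497A, by 1.75 ± 0.16 (adjusted p = 0.000249 with edgeR), with no overlap and a call in all 22 alternatives.

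**Figure D3:**
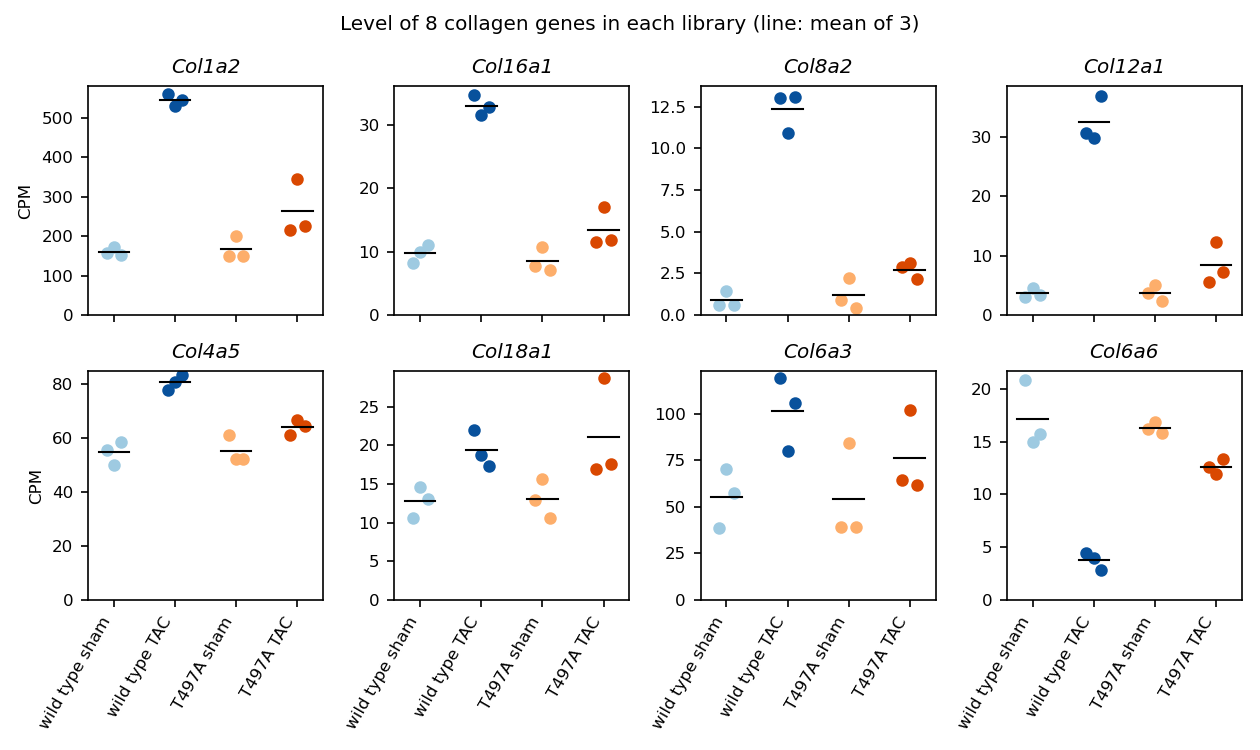
CPM of 8 collagen genes in each library (linear axes from 0; points are libraries, lines the mean of 3). Col1a2, Col16a1, Col8a2 and Col12a1 are highest in wild type TAC, Col6a6 is low there at 2.84 to 4.43 CPM, and Col18a1 and Col6a3 overlap between the 2 TAC groups.

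Whether the TAC effect itself differed between genotypes was tested as the interaction, the log2 fold change after TAC in T497A minus that in wild type. It was called for 3 collagens, against 0.894% of tested genes called higher and 0.679% lower, and 15 of the 35 had an unadjusted p under 0.05, against 16.8% of tested genes. For Col6a6 it was 1.82 ± 0.22 (adjusted p = 0.00467 with edgeR) and was called in all 21 alternatives. For Col1a2 (chromosome 6, 4504814 to 4541544, plus strand) it was -1.11 ± 0.24 (adjusted p = 0.0481 with edgeR), and for Col16a1 (chromosome 4, 130047840 to 130099283, plus strand) -1.10 ± 0.25 (adjusted p = 0.0473 with edgeR). These 2 calls lay at the threshold: each was made in 8 of 21 alternatives and lost on leaving out any 1 library other than T497A TAC replicate 2, with adjusted p up to 0.122 and 0.113. Upper-quartile scaling also lost both (adjusted p = 0.0547 and 0.0516 with edgeR). The Col1a2 call was lost as well without the low-count filter, and the Col16a1 call without robust estimation. DESeq2 called 7 collagens lower, against 2.66% of tested genes. In size, Col8a2 (-2.56 ± 0.71) and Col12a1 (-1.96 ± 0.44) had larger interactions that missed the threshold (adjusted p = 0.0988 and 0.0591 with edgeR).

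The TAC effects of the 35 genes in the 2 genotypes come from separate libraries and were set against each other as a description across genes, which are not independent replicates. Pearson's r was 0.85 and Spearman's rho 0.81, and 28 of the 35 effects (80%) were smaller in size in T497A, against 71.2% of all tested genes. A line through 0 had a slope of 0.41. Over all tested genes the slope was 0.29, Pearson's r 0.42 and Spearman's rho 0.47. Over the 24 collagens called in wild type the same values were 0.41, 0.87 and 0.85. Over all genes called in wild type they were 0.33, 0.80 and 0.81. These differences were not tested. Among the 23 called higher in wild type, which were chosen on their wild type effect, the T497A effect was a median 39.2% of it, from -8.89% for Col28a1 to 60.3% for Col11a1. Col18a1, singled out with Col6a3 in the plot of levels after their values were seen, had log2 fold changes of 0.60 ± 0.21 in wild type and 0.69 ± 0.21 in T497A, with an interaction of 0.09 ± 0.30.

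**Figure D4:**
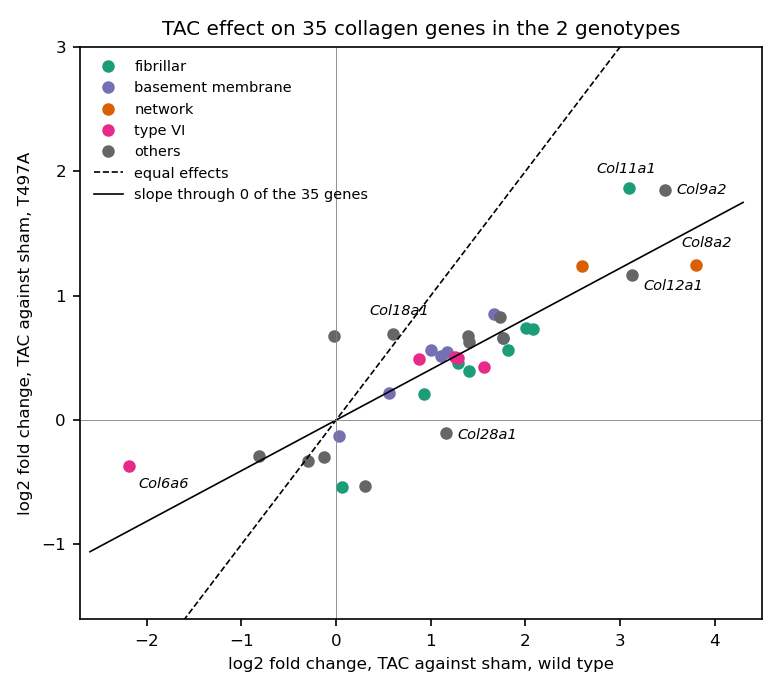
The log2 fold change after TAC in T497A (y) against that in wild type (x) for the 35 collagen genes, colored by class; the dashed line marks equal effects and the solid line the slope of 0.41 through 0. Most genes called in wild type lie near the solid line, Col6a6 lies above it at the lower left, and Col18a1 lies by the dashed line.

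Because the chains of 1 trimer or 1 start region are counted in the same library, their ratio is free of depth. Col4a1 stood to Col4a2, with which it shares its start region, at 1.37 on average in wild type sham, 1.44 in wild type TAC, 1.40 in T497A sham and 1.44 in T497A TAC. The values of all 12 libraries lay between 1.33 and 1.48. Col6a1 stood to Col6a2 at 0.91, 0.89, 0.92 and 0.92 in the same order, again with overlap of all groups. Other pairs shifted. Col5a1 stood to Col5a2 at 1.70, 1.45 and 1.47 in the wild type sham libraries and 0.902, 0.89 and 0.962 after TAC. In T497A the ratios were 1.37, 1.47 and 1.48, then 1.13, 1.23 and 1.20. TAC libraries lay below sham in both genotypes, and the T497A TAC libraries lay above those of wild type TAC.

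Col4a4 stood to Col4a3, its head-to-head partner, at 1.98 in wild type sham, 1.26 in wild type TAC, 2.02 in T497A sham and 1.69 in T497A TAC. In wild type the 2 surgeries did not overlap (1.84 to 2.18, then 1.16 to 1.37). The opposite-strand gene C430014B12Rik overlaps 5.65% of the Col4a3 exons, and no other gene overlaps those of Col4a4. As the strand setting is not given, its part in the Col4a3 counts was not tested. Col8a1 stood to Col8a2 at 53.2 in wild type sham and 20.8 after TAC, and at 40.8 and 32.4 in T497A, with overlap in T497A. Col1a1 stood to Col1a2 at 0.65, 0.82, 0.64 and 0.69, and Col3a1 to Col1a1 at 2.15, 1.82, 2.25 and 1.99, in the order wild type sham and TAC, then T497A sham and TAC. Col6a6 stood to Col6a3 at 0.31, 0.04, 0.32 and 0.17 in that order. For Col1a1 to Col1a2 the wild type surgeries did not overlap (0.568 to 0.747, then 0.783 to 0.842), and those of T497A did. The pairs with Col4a3 and with Col6a3 were chosen after the fold changes were seen, as were Col6a3 to Col6a1 (0.65, 0.51, 0.63 and 0.64) and Col4a5 to Col4a6 (23.8, 34.7, 21.7 and 27.0).

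**Figure D5:**
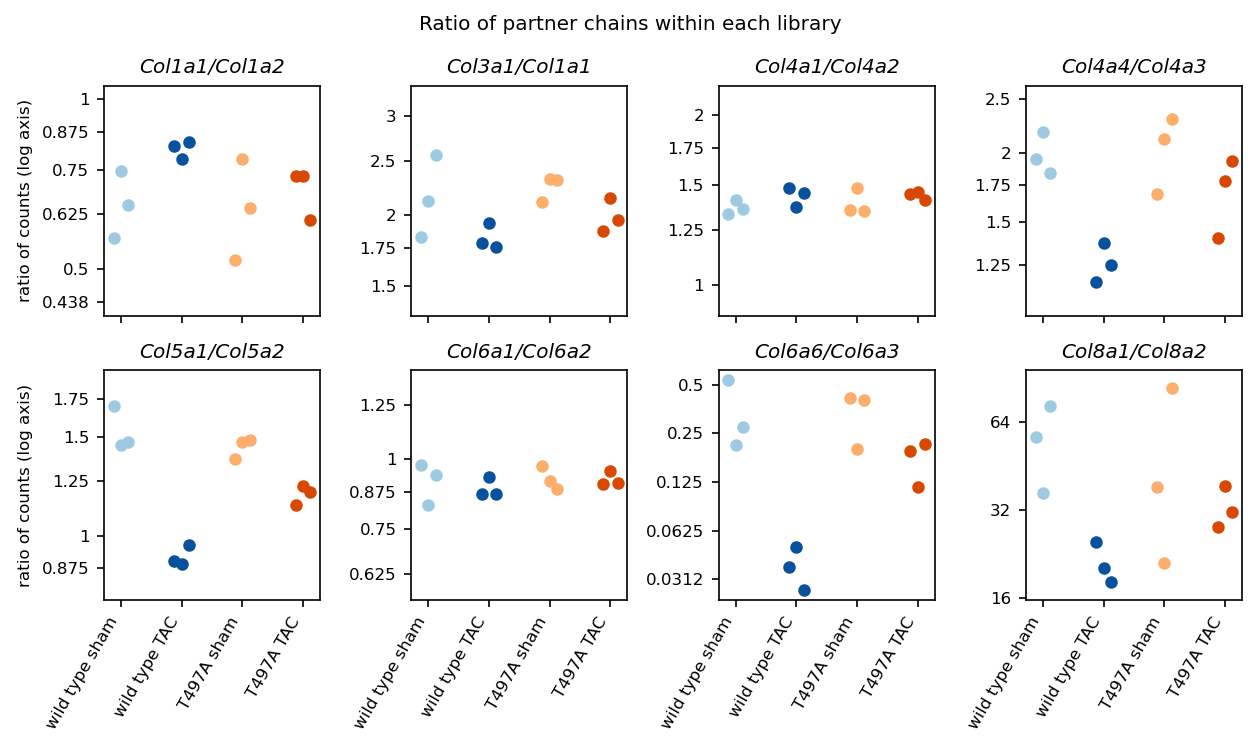
Ratio of the counts of 8 pairs of collagen chains in each library (log axes; points are libraries). Col4a1 to Col4a2 and Col6a1 to Col6a2 keep 1 level over the 4 groups, and Col5a1 to Col5a2 lies at 0.89 to 0.962 in wild type TAC against 1.45 to 1.70 in wild type sham.

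The make-up of the collagen transcripts shifted with the classes. Per kilobase, fibrillar chains were 25.6 ± 0.39% of collagen transcripts in wild type sham, 33.9 ± 2.38% in wild type TAC, 26.3 ± 0.49% in T497A sham and 27.0 ± 1.83% in T497A TAC (SD, n = 3). Basement membrane chains were 47.3 ± 1.10%, 38.3 ± 2.22%, 47.8 ± 0.97% and 46.0 ± 3.68%. Network chains were 2.18 ± 0.07%, 5.19 ± 0.57%, 2.02 ± 0.31% and 3.11 ± 0.09%. Type VI chains were 14.3 ± 0.85%, 11.8 ± 0.36%, 13.8 ± 0.11% and 13.0 ± 1.29%, and the others stayed between 10.0 and 10.9%. These shares use joined exons. With longest transcripts fibrillar chains were 32.3, 41.1, 33.4 and 33.9% in the same group order. Basement membrane chains were then 40.4, 31.5, 40.7 and 39.0%. Which of these classes was larger in wild type TAC therefore rested on the length used.

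The machinery that collagens depend on was followed through lists written with earlier results of these data known. Among all tested genes, 12.3% were called higher and 12.6% lower after TAC in wild type. In T497A against wild type after TAC, 4.64% were called higher and 4.06% lower. Of 34 genes for collagen folding, processing and cross-linking, 22 were called higher and 2 lower after TAC in wild type, and 13 lower and 1 higher in T497A than in wild type after TAC. The cross-linking enzyme gene Lox rose from 5.56 ± 0.60 to 35.1 ± 5.85 CPM (SD, n = 3) in wild type and stood at 9.82 ± 2.99 in T497A TAC. Its relative Loxl3 rose from 3.39 ± 0.43 to 15.2 ± 2.28 CPM and stood at 6.46 ± 1.31 in T497A TAC. The interaction was called lower for 6 of the 34, against 0.679% of tested genes. It stood at -1.72 ± 0.30 for Lox and -1.39 ± 0.23 for Loxl3 (adjusted p = 0.0213 and 0.0158 with edgeR).

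Of 14 tested proteins that sit on fibrils, 11 were called higher after TAC in wild type and none lower, against 12.3% and 12.6% of tested genes. In T497A TAC 5 were called lower than in wild type TAC, against 4.06%. Comp and Postn, matrix proteins of loaded or healing tissue, led with log2 fold changes of 3.59 ± 0.52 and 3.50 ± 0.35. Of 11 non-collagen basement membrane genes 3 were called higher, with Nid1 (nidogen, which joins laminin to type IV collagen) at 0.51 ± 0.08 and Agrn at 0.43 ± 0.11. None was called between genotypes after TAC. Of 14 receptors and uptake genes 5 were called higher and 1 lower, with the fibroblast integrin gene Itga11 at 1.46 ± 0.29 and Mrc2, a collagen uptake receptor, at 1.19 ± 0.10. After TAC, Mrc2 was lower in T497A, by a log2 difference of -0.92 ± 0.10, and its interaction was called at -0.78 ± 0.14 (adjusted p = 0.000343 and 0.0213 with edgeR). Antxr2, a receptor for type VI collagen and toxins, was higher in T497A after TAC by 0.30 ± 0.08 (adjusted p = 0.0403 with edgeR). Of 22 regulators 12 were called higher, with Ccn2 at 2.65 ± 0.31 and Meox1 at 2.35 ± 0.41, and 6 were called lower in T497A TAC. In T497A after TAC, none of these 5 lists had a called member, where 0.0634% of tested genes were called higher and 0.0507% lower. At those shares, lists of this size would rarely hold a call.

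Markers of cell types moved with the collagens in part; in wild type the counts below stand beside 12.3% of all tested genes called higher after TAC and 12.6% lower. The 10 markers of activated fibroblasts summed to 178 to 202 CPM in wild type sham, 1088 to 1320 in wild type TAC, 192 to 279 in T497A sham and 297 to 541 in T497A TAC. Of these, 8 were called higher in wild type TAC and 6 lower when T497A was set against wild type after TAC; Postn, Comp and Meox1 stand in the lists above as well. The 13 fibroblast markers summed to 1811 to 1852, 2262 to 2630, 1790 to 2047 and 2169 to 2231 CPM in the same order, with 6 called higher and 1 lower after TAC in wild type. The 10 macrophage markers summed to 202 to 237, 324 to 410, 226 to 276 and 262 to 342 CPM, with 8 called higher. The 12 endothelial markers gave 1 call, and their sums overlapped between all groups (1330 to 1696 CPM over the 12 libraries). Of 11 smooth muscle and pericyte markers 1 was called higher and 2 lower. Of 10 cardiomyocyte markers 7 were called lower and 1, Nppa, higher. Of 6 erythrocyte markers 4 were called higher. Of the tested markers of nerve (8), valve or cartilage (5), skeletal muscle (7) and atrium (5), 1, 2, 0 and 1 were called higher in wild type TAC and 2, 1, 1 and 0 lower. The atrial call was again Nppa, which is in both lists. Neither the 2 tested epicardial nor the 4 tested adipocyte markers were called, and no marker of any list was at 0 in all 12 libraries. Between genotypes after TAC, 4.64% of tested genes were called higher in T497A and 4.06% lower. Of the cardiomyocyte markers 4 were called higher and 1 lower, and of the fibroblast markers 1 was called higher and 3 lower. Of the smooth muscle and pericyte markers and of the valve or cartilage markers 1 each was called higher. Of the endothelial, macrophage, nerve and atrial markers 1 each was called lower. Nppa was both the atrial and the cardiomyocyte marker called lower. The epicardial, skeletal muscle, adipocyte and erythrocyte lists had no call. The part of these cells in the collagen differences was not tested.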

How the data were processed

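RNA was sequenced from the left ventricle of mice, 12 libraries in 4 groups of 3 (single-end reads, poly(A)-based kit, per the labels' protocols). The deposited file holds raw counts per gene; reads were trimmed with Trim Galore 0.6.4, aligned with STAR 2.7.3a to mm10 and counted with featureCounts of Subread 1.6.3, per the submitters' processing notes, which also name limma 3.50.3. The sources used here do not give the strand setting, the handling of multi-mapped reads or the annotation release, so antisense and overlapping genes cannot be told apart.

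Counts were tested in R 4.3.3 with edgeR 4.0.16 (TMM factors, filterByExpr with a minimum count of 10, robust quasi-likelihood F test, 1 model over 12 libraries), with Benjamini-Hochberg adjustment over 15764 genes and a threshold of 0.05. Each standard error was computed as |log2 fold change| over the root of its F statistic. CPM uses TMM-scaled library sizes, and levels per kilobase use the joined exons of the reference annotation. Totals were 36862004 to 46898344 counts and the biological coefficient of variation was 17.2%. Alternatives included DESeq2 1.42.0, limma-voom (limma 3.58.1), other scalings and filters, and leaving out each library; halved counts were added after the excess of even counts was seen. Scripts were tested on simulated data.

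Groups come from the labels. Every title carries the same replicate number, so libraries were numbered in accession order, which pairs nothing. The titles differ in a further number, distinct in every library, whose meaning the labels leave unsaid; separate animals are not stated, and the p-values cover only the spread among these libraries, which may be technical. Replicate pairs differed by 21.3 to 57.5 times the chi-square expected from counting alone.

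The members and gene lists were chosen with earlier results of these data known. Values in every library were given for the 3 largest changes in wild type of each class (mean of at least 1 CPM), the highest level per kilobase of each class, members called in any other comparison or against the median's sign, and the partner chains of 6 pairs. Of 7 further pairs computed after the fold changes were seen, 4 are given and 3 were dropped after their values were seen, because they rest on counts near 0. The 5 motifs and the 4 windows printed were also chosen with the fold changes known.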

Additional observations from a re-analysis of the deposited data

Results flagged for a closer look

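The TAC effect differed between genotypes, by the interaction in edgeR's quasi-likelihood test with Benjamini-Hochberg adjustment, for 3 collagens. Col6a6 differed by 1.82 on the log2 scale: its log2 fold change after TAC was -2.19 in wild type, where it passed the test, and -0.37 in T497A, where it did not. Col1a2 differed by -1.11 and Col16a1 by -1.10, and for both the log2 fold change was 1.77 in wild type, which passed the test, and 0.66 in T497A, which did not. These 2 calls were made in 8 of 21 alternatives each, against 21 of 21 for Col6a6.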

How the results depend on the processing

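No paired analysis was possible because every title carries the same replicate number. The number of collagens called higher after TAC in wild type ranged from 19 to 25 over the alternatives (23 as reported). Over all tested genes it ranged from 1350 of 16190 to 2173 of 15764 (1943 of 15764 as reported). In T497A the number of collagens called higher was 10 with DESeq2 and 4 without the low-count filter, against 0. The shares of tested genes were 1.00%, 0.584% and 0.0634% in that order. The number of collagens called lower in T497A than wild type after TAC ranged from 6 to 16 on leaving out 1 library (13 as reported). Over all tested genes it then ranged from 203 of 16190 to 693 of 16232 (640 of 15764 as reported). The number of collagens with a lower interaction was 0 with upper-quartile factors, 7 with DESeq2 and 0 to 6 on leaving out 1 library (2 as reported). Over all 15764 tested genes it was 106 with upper-quartile factors and 420 with DESeq2 (107 as reported). On leaving out 1 library it ran from 15 of 16190 to 246 of 16232. The log2 ratio of summed fibrillar counts in wild type was 1.82 with TMM-scaled sums against 2.01. It was the exception among the sums of each class and of all members, where 167 of 168 alternatives stayed within 1 SD.

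Signs changed in 109 values over all comparisons, none called in either fit; 62 of them were in the sham comparison, over 26 collagens, which the text gives only as a range. With limma-voom, Col26a1 after TAC in wild type was 0.010 and the Col6a5 interaction 0.95. On leaving out 1 library, log2 fold changes after TAC in wild type ranged from -0.66 to 0.11 for Col25a1, -0.51 to 0.41 for Col26a1, -0.085 to 0.68 for Col13a1, -0.13 to 0.32 for Col11a2 and -0.17 to 0.18 for Col4a6. In T497A they ranged from -0.56 to 0.16 for Col28a1, -0.19 to 1.18 for Col5a3, -0.16 to 4.41 for Col6a5 and -0.43 to 0.10 for Col4a6. Between genotypes after TAC they ranged from -0.72 to 0.16 for Col25a1, -0.52 to 0.25 for Col26a1, -0.16 to 0.26 for Col18a1, -0.064 to 0.39 for Col23a1, -0.091 to 0.37 for Col11a2 and -0.14 to 0.29 for Col4a6. The interaction ranged from -0.65 to 0.088 for Col6a3, -0.54 to 0.33 for Col25a1, -1.25 to 0.25 for Col5a3, -2.10 to 2.85 for Col6a5, -0.20 to 0.23 for Col18a1, -0.42 to 0.070 for Col23a1 and -0.46 to 0.067 for Col4a6. The cause was not tested. Depth limits the scarce chains: Col6a5 and Col26a1 had means of 20.8 and 14.9 counts.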

Other observations

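Col2a1, the collagen of cartilage, fell under the count minimum and was chosen here after its values were seen. It had 0 counts in all 6 sham libraries, 6, 20 and 2 counts in wild type TAC and 8, 0 and 4 in T497A TAC. It was not tested.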
